A study of Mus musculus with 21 samples.

Results

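The dystrophin glycoprotein complex joins the actin cytoskeleton of a muscle fibre to the extracellular matrix across the plasma membrane. Expression of 8 of its genes was compared between left ventricles of mice with and without an inducible, cardiomyocyte-directed Cre recombinase, after tamoxifen or control injections. The 8 genes were chosen by name, with earlier results of these data known. The list comprised Dmd, Utrn, Dag1, Sgca, Sgcb, Sgcd, Dtna and Sntb1. They were 8 of 19937 genes that had a probe set naming that gene alone, each had exactly 1 such probe set, and all 8 were among the 11384 genes bright enough to be tested (a log2 value of 5 on at least 3 arrays).

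Affymetrix gene arrays measured total RNA from left ventricular myocardium, with 21 samples on 21 arrays, and the mice were 9 to 13 weeks old. Tg(αMHC-MerCreMer) mice carry a Cre recombinase flanked by mutated oestrogen receptor domains under the α-myosin heavy chain promoter, which is active in cardiomyocytes. Tamoxifen, given intraperitoneally at 40 mg/kg, lets this Cre enter the nucleus. The 6 groups were MerCreMer mice after 1 control injection, 1 tamoxifen injection, 4 daily control injections or 4 daily tamoxifen injections (3 arrays each), and wild-type mice after 4 control injections (6 arrays) or 4 tamoxifen injections (3 arrays). The hearts were collected once 4 further days had passed. In each group of 3 there were 1 male and 2 females, while males and females were equal in number, 3 and 3, among wild-type controls. The labels name neither the strain nor what the control injection contained, and they describe no floxed target gene. The labels number the samples of a group but do not say outright that each is a separate animal, so the p values measure the spread between these samples.

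Dystrophin, encoded by Dmd, binds actin at one end and, at the other, the transmembrane protein β-dystroglycan. Its loss causes Duchenne muscular dystrophy and a cardiomyopathy. Utrophin (Utrn) is its closest relative and can occupy the same place in the complex. Dag1 encodes both dystroglycans, of which the outer one holds laminin. The sarcoglycans Sgca, Sgcb and Sgcd form a transmembrane subcomplex that stabilises dystroglycan. Dystrobrevin (Dtna) and the syntrophins, here Sntb1, bind dystrophin on the cytoplasmic side and anchor signalling proteins.

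After 4 tamoxifen injections in MerCreMer mice, Dmd, Sgcd and Dtna fell, Sntb1 rose, and Utrn, Dag1, Sgca and Sgcb did not pass the test. These 4 called genes of 8 stand beside 23.3% of all tested genes called in this comparison (limma, Benjamini-Hochberg adjusted p under 0.05). Of all tested genes 9.41% were called lower, against 3 of 8 here, and 13.9% higher, against 1 of 8. Since the 8 genes were chosen with earlier results of these data known, such counts, here and below, describe the list and do not test it. The median change over the 8 genes was -0.19 log2 units, and that over all tested genes was 0.014. After 1 tamoxifen injection, and after 4 in wild-type mice, 0 of the 8 were called by limma, and 0 of the 8 had an unadjusted p under 0.05 in either comparison.

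**Figure D1:**
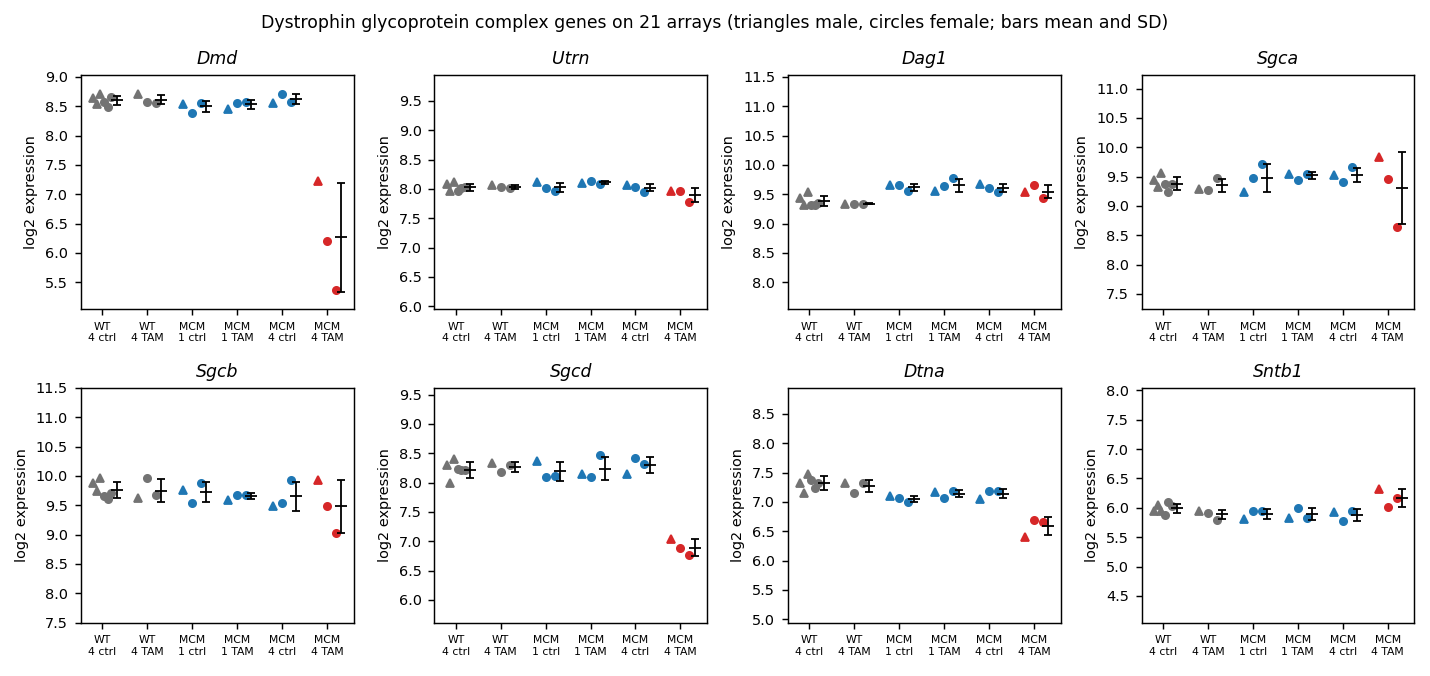
Log2 expression of the 8 genes (vertical axes, each spanning 4 log2 units) on all 21 arrays in the 6 groups (WT wild type, MCM MerCreMer, ctrl control, TAM tamoxifen), with triangles for males, circles for females and bars for mean and SD. Dmd lay between 5.37 and 7.23 after 4 tamoxifen injections in MerCreMer mice and between 8.39 and 8.71 on the other arrays.

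The array spread bears on every value below. The mean squared residual of the MerCreMer 4 tamoxifen arrays was 0.0708, against 0.0102 to 0.0154 in the other groups, while the limma fit gives all groups 1 spread. Cardiomyocyte markers were the brightest of the lists, with a mean over 15 genes of 12.11 to 12.2 on the other arrays and 11.55 to 12.06 on the MerCreMer 4 tamoxifen arrays. Macrophage markers averaged 6.96 to 8.24 on these arrays and 6.52 to 6.86 on the others, and 11 of 11 rose. Of the cardiomyocyte markers 4 of 15 fell, namely Ryr2 (-1.34), Tcap (-0.83), Pln (-0.77) and Ttn (-0.43), and 0 rose. Of the endothelial markers 3 of 11 fell, of the fibroblast markers 1 rose and 1 fell of 10, and of the smooth muscle and pericyte markers 1 of 9 rose. Among skeletal muscle markers 1 of 4 tested, Tnnt3, rose, and of the 3 tested atrial markers 1, Myl7, fell. The atrial markers averaged 9.21 to 9.62 on the MerCreMer 4 control arrays and 7.11 to 8.31 on the MerCreMer 4 tamoxifen arrays. They ranged from 6.34 to 8.55 on the wild-type 4 control arrays and from 6.72 to 9.64 on the MerCreMer 1 control arrays, so the control arrays themselves differed in atrial signal. The 1 tested Schwann and neuron marker and the 2 red blood cell markers were not called. Beside these marker counts, 9.41% of all tested genes were called lower and 13.9% higher. The labels name no array batch, but 1 unnamed probe set separated the arrays into a set at 11.47 to 11.52, with 2 arrays of each MerCreMer group, and a set at 11.22 to 11.36, with the remaining array of each MerCreMer group and all wild-type arrays. In a whole ventricle, fewer cells of a type and less RNA per cell cannot be told apart.

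Dmd was the gene with the largest fall among the 8. Its log2 values in the MerCreMer 4 control group were 8.56, 8.71 and 8.58 on replicates 1 to 3, and after 4 tamoxifen injections they were 7.23, 6.21 and 5.37. All 3 tamoxifen arrays lay below every other array in the study, and they differed from each other by more than any other group did. Relative to the control mean they retained 38.1%, 18.8% and 10.5% of the signal. The group mean went from 8.62 ± 0.0814 to 6.27 ± 0.929 (SD, n = 3), and the fitted change was -2.35 (SE 0.248, 95% confidence interval -2.87 to -1.83, limma adjusted p = 5.87e-06), to 19.6% of the control level. Only 3 of the 11384 tested genes had a more negative change. In the fit with only the 6 arrays compared, the same change had an adjusted p of 0.097 and was not called. Within the set of 8 arrays with the higher probe set level, which holds 2 arrays of each MerCreMer group, it was -2.78 (adjusted p = 0.035). The lowest array was close to the value of 5 that served as the brightness limit. Leaving out MerCreMer 4 tamoxifen replicate 3 gave -1.92, and Dmd was called whichever single array of these 2 groups was left out.

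The array with the highest Dmd of the 3 was the 1 male of the group, and the 2 females lay lower. With female arrays alone the change was -2.86 (limma adjusted p = 6.04e-05). A sex difference of the tamoxifen effect cannot be told apart from a difference between single animals here, since each group of 3 held 1 male.

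Where the remaining groups are put in order of Dmd, MerCreMer 1 control (8.50 ± 0.0935), MerCreMer 1 tamoxifen (8.53 ± 0.0701), wild-type 4 control (8.60 ± 0.081, n = 6), wild-type 4 tamoxifen (8.61 ± 0.0737) and MerCreMer 4 control (8.62 ± 0.0814) followed each other at steps smaller than these SDs (n = 3 unless given). Dmd changed by 0.03 (interval -0.49 to 0.55) after 1 tamoxifen injection in MerCreMer mice and by 0.05 (interval -0.4 to 0.5) after 4 in wild-type mice. These intervals do not reach the size of the fall seen after 4 injections in MerCreMer mice.

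Sgcd, the δ-sarcoglycan gene, whose loss causes a dilated cardiomyopathy in rodents, fell in a more even way. The MerCreMer 4 control arrays were at 8.14, 8.42 and 8.32, and the tamoxifen arrays at 7.04, 6.88 and 6.76. These 3 arrays were again below all others in the study, whose lowest Sgcd value was 7.99, and they were as close together as the controls. The mean fell from 8.30 ± 0.141 to 6.89 ± 0.144 (SD, n = 3), a change of -1.40 (SE 0.118, interval -1.65 to -1.16, limma adjusted p = 4.09e-07), to 37.8% of the control level. By p value it was rank 17 of 11384 genes, and Dmd was rank 40. Sgcd was the 1 gene of the 8 still called with only the 6 arrays compared (adjusted p = 0.0382). Elsewhere the group means of Sgcd lay between 8.19 and 8.30, with SDs of 0.0818 to 0.2, and did not separate.

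The promoters of Dmd and Sgcd, which fell, and of Utrn, which did not pass the test, are shown because these genes encode partners or relatives in 1 complex and differed in response. Each is 300 bases around a transcription start, 250 before and 50 after, from RefSeq on build GRCm38.p6. Dmd is at chrX:82948620-82948919 (plus strand), Sgcd at chr11:47379276-47379575 (minus strand) and Utrn at chr10:12861686-12861985 (minus strand). Each window lies at a start inside the gene, not at the outer end of its annotated span. Those outer ends are at 82814664 for Dmd, 47989451 for Sgcd and 12869888 for Utrn. Which start the heart uses was not tested. Capitals mark matches on either strand to the CArG box of serum response factor, the MEF2 site, the M-CAT element (CATTCC) bound by TEAD factors, and the E-box (CANNTG).
Dmd: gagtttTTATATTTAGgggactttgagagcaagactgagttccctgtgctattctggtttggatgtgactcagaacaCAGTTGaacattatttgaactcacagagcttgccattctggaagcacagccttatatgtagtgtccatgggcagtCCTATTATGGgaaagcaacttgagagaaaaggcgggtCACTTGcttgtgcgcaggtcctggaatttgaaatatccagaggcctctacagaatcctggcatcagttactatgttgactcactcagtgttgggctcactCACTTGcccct
Sgcd: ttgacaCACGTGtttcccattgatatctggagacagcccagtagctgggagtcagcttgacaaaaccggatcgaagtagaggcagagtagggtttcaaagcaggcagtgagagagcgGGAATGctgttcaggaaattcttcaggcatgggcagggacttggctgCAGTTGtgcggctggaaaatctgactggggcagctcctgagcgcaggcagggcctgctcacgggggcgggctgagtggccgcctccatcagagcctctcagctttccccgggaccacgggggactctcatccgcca
Utrn: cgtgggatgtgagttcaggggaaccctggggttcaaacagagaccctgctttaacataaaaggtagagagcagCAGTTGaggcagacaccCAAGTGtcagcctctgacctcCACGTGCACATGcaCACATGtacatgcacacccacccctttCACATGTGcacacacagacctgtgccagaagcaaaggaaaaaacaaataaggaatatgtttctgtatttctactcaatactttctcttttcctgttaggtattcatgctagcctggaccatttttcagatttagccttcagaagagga
The Dmd promoter held a CArG box, which 1.63% of all 32851 promoters in the table hold, and a MEF2 site, which 3.19% hold. A match to the TATA box letters (TATAAA, in 13.6% of promoters) overlapped that MEF2 site. The Sgcd promoter held an M-CAT element, present in 14.7% of promoters, and a GC box (GGGCGG, in 35.7%). Of these motifs Utrn matched only the E-box, which is in 72.3% of promoters, and Dmd and Sgcd matched it too. None of the remaining promoter entries of Dmd, Sgca, Sgcb and Dag1 held a CArG box, a MEF2 site or an M-CAT element. Of the 8 genes, 6 had a promoter entry, and Sntb1 and Dtna had none. These matches describe letters in 1 window per start and were not set against any measure of binding.

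Utrn lay at 8.07, 8.04 and 7.95 in the MerCreMer 4 control group and at 7.97, 7.96 and 7.77 after 4 tamoxifen injections. The groups overlapped. The change was -0.12 (SE 0.0649, interval -0.25 to 0.02, limma adjusted p = 0.201), so the interval leaves room for a rise of at most 0.02 log2 units while Dmd was at 19.6% of its control level. Over all 6 groups the means of Utrn ranged from 7.9 to 8.11.

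Dag1 was at 9.67, 9.61 and 9.54 in the MerCreMer 4 control group and at 9.53, 9.66 and 9.44 after 4 tamoxifen injections, with a change of -0.06 (interval -0.23 to 0.1, limma adjusted p = 0.606). The values of Dag1 differed more between the control-injected genotypes. Its 6 wild-type control arrays ranged from 9.31 to 9.53 with a median of 9.34, and the 6 control-injected MerCreMer arrays from 9.54 to 9.67. These ranges did not overlap, but only just, at 9.53 and 9.54, and the MerCreMer range pools 1 and 4 control injections. How many of all genes separated in this way was not counted. All wild-type arrays were in the lower-level array set, so genotype and array set cannot be fully told apart. The difference between the groups given 4 control injections was 0.23 (SE 0.0687, interval 0.09 to 0.38, unadjusted p = 0.00334), but limma's adjusted p of 0.111 missed the threshold. It passed when the groups were weighted by their own variances (adjusted p = 0.0317), with array weights (0.0142) and with the MerCreMer 4 tamoxifen arrays left out of the fit (0.0357). Over 13 alternatives other than leaving out 1 array, of which 1 used female arrays only, the difference ranged from 0.17 to 0.28 and the adjusted p from 0.0142 to 1. With the array set as a block it was 0.28 (adjusted p = 0.208). Between these genotypes 0.676% of all genes were called (0.132% lower and 0.545% higher in MerCreMer), and 0 of the 8 genes were (2 of 8, Dag1 and Dtna, had an unadjusted p under 0.05, as did 1694 of all 11384 genes).

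Among the remaining sarcoglycans, Sgca (α-sarcoglycan) was at 9.52, 9.41 and 9.66 in the MerCreMer 4 control group and at 9.84, 9.46 and 8.64 after tamoxifen. Replicate 1 was above all the controls and replicate 3 below them. The change was -0.22 (interval -0.62 to 0.19, limma adjusted p = 0.442). Leaving out MerCreMer 4 tamoxifen replicate 1 gave -0.49, which was called (adjusted p = 0.0481), and leaving out replicate 3 gave 0.12. Sgcb (β-sarcoglycan) was at 9.48, 9.53 and 9.93 in the controls and at 9.93, 9.48 and 9.03 after tamoxifen, with a change of -0.16 (interval -0.52 to 0.19, limma adjusted p = 0.516). The interval of Sgcd ended at -1.16, and those of Sgca and Sgcb began at -0.62 and -0.52. These intervals rest on 1 spread for all groups, while the SD after tamoxifen was 0.611 for Sgca and 0.447 for Sgcb. A difference between the 3 sarcoglycan genes was not tested.

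Dtna, the α-dystrobrevin gene, was at 7.05, 7.18 and 7.18 in the MerCreMer 4 control group and fell to 6.41, 6.70 and 6.66. The 3 tamoxifen arrays lay below all others, of which the lowest was at 7. The change was -0.55 (SE 0.0912, interval -0.74 to -0.36, limma adjusted p = 0.000426), to 68.4% of the control level, and its adjusted p was 0.134 with only the arrays compared. Replicate 1, which kept the most Dmd, had the lowest Dtna. Dtna also ranked lower in MerCreMer than in wild-type controls, at 7.14 ± 0.0758 (n = 3) against 7.32 ± 0.116 (n = 6), a difference of -0.18 that was not called (limma adjusted p = 0.276).

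Sntb1, the gene of β1-syntrophin, was the dimmest of the 8, at 5.93, 5.77 and 5.94 in the MerCreMer 4 control group and at 6.32, 6.02 and 6.17 after tamoxifen. The groups did not overlap, but a wild-type control array reached 6.1, above the lowest tamoxifen array. The change was 0.29 (SE 0.0878, interval 0.1 to 0.47, limma adjusted p = 0.0249). This call was lost without MerCreMer 4 control replicate 2 (0.23), without MerCreMer 4 tamoxifen replicate 1 (0.21) and without replicate 3 (0.29), and under 6 further alternatives. Over the 8 genes 4 had groups that did not overlap between 4 tamoxifen and 4 control injections in MerCreMer mice, beside 27.9% of all tested genes. Against all 18 other arrays, 3 of 8 genes were lower without overlap (Dmd, Sgcd and Dtna), beside 3.96% of all tested genes, and 0 of 8 were higher, beside 7.56%.

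**Figure D2:**
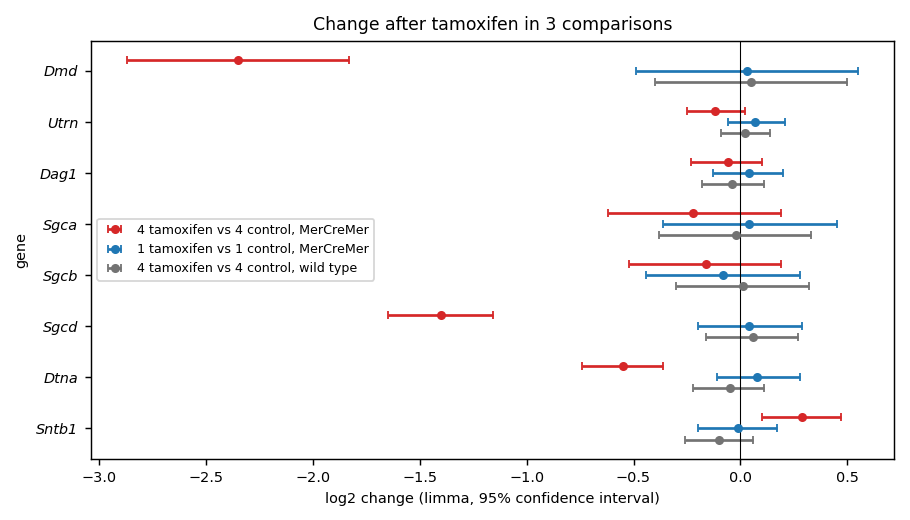
Log2 change of each gene (horizontal axis) with its 95% confidence interval in 3 tamoxifen comparisons, from the limma fit to all 21 arrays. Dmd, Sgcd, Dtna and Sntb1 have intervals that leave out 0 after 4 injections in MerCreMer mice, and every interval of the other comparisons holds 0.

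Whether the effect of tamoxifen differed with the transgene was tested as the difference between the changes of both genotypes. It was -2.40 for Dmd (SE 0.329, limma adjusted p = 0.000248), -1.46 for Sgcd (SE 0.157, adjusted p = 2.37e-05), -0.49 for Dtna (SE 0.121, adjusted p = 0.0178) and 0.39 for Sntb1 (SE 0.117, adjusted p = 0.047). These were 4 of 8 genes, beside 7.98% of all tested genes (3.53% lower, 4.45% higher). In wild-type mice 0% of all genes were called after tamoxifen, and the changes of the 8 genes ranged from -0.1 to 0.06. With the replicate block only the Sgcd call was kept, and Dmd was at -2.51 (adjusted p = 0.0721). The Dtna call was also lost with only the arrays compared (0.0506), with group variance weights (0.0631) and with female arrays only (0.114). The calls for Dtna and Sntb1 were both lost without wild-type 4 tamoxifen replicate 1 (-0.45 and 0.42) and without wild-type 4 tamoxifen replicate 3 (-0.47 and 0.35), and the Sntb1 call was also lost on leaving out any other single array of the 4 groups except MerCreMer 4 tamoxifen replicate 2 and wild-type 4 control replicate 4 (0.31 to 0.42).

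Whether it differed with the number of injections was tested in the same way within MerCreMer mice. Hearts were collected 4 days after the last injection in every group. Number of injections, total dose and time since the first injection therefore changed together and cannot be told apart. The difference between the effects of 4 and of 1 injection was -2.38 for Dmd (SE 0.351, limma adjusted p = 0.000663), -1.45 for Sgcd (SE 0.167, adjusted p = 4.92e-05) and -0.63 for Dtna (SE 0.129, adjusted p = 0.00735). That is 3 of 8 genes, beside 5.78% of all tested genes (3% lower, 2.78% higher). Within the set of 8 arrays with the higher probe set level, all 3 calls were lost (adjusted p of 0.103 to 0.208). The Dtna call was also lost with only the arrays compared (adjusted p = 0.0559) and with female arrays only (0.0614). For Sntb1 the difference was 0.30 (adjusted p = 0.155) and was called only without MerCreMer 4 tamoxifen replicate 2 (0.38). After 1 injection 0.00878% of all genes were called, which is 1 gene, and the changes of the 8 genes ranged from -0.08 to 0.08. Between 4 and 1 control injections 0% of genes were called by limma, and 0 of the 8 had an unadjusted p under 0.05. These comparisons share control arrays with each other, and their values are given side by side.

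The 8 genes did not follow the 3 tamoxifen-treated MerCreMer hearts in 1 order. Dmd, Sgcd, Sgca, Sgcb and Utrn, 5 of 8, were highest on replicate 1 and lowest on replicate 3, and Dag1, Dtna and Sntb1 had other orders. Relative to the MerCreMer 4 control mean, Dmd was at -1.39, -2.41 and -3.24 and Sgca at 0.31, -0.07 and -0.89 on replicates 1, 2 and 3. Sgcd was at -1.25, -1.42 and -1.54, Dtna at -0.73, -0.44 and -0.48 and Sntb1 at 0.44, 0.14 and 0.29. On the same arrays the median of the macrophage markers was at 0.93, 0.36 and 1.80, that of the cardiomyocyte markers at -0.04, 0.03 and -0.28, and that of the endothelial markers at 0.11, -0.30 and -0.61. The part of these cell types in the changes of the 8 genes was not tested.

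**Figure D3:**
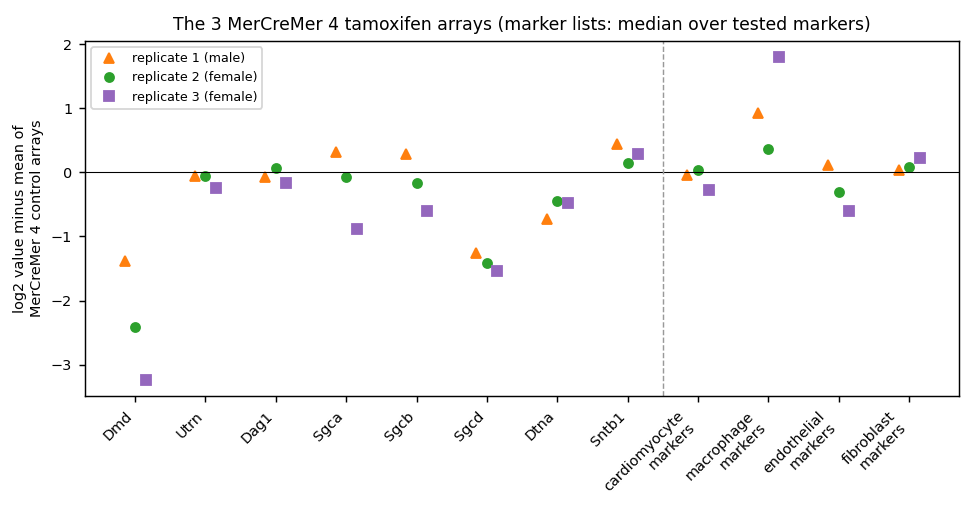
Log2 value minus the mean of the MerCreMer 4 control arrays (vertical axis) for the 8 genes and the medians of 4 marker lists on each of the 3 MerCreMer 4 tamoxifen arrays. Dmd spreads from -1.39 to -3.24, Sgcd from -1.25 to -1.54, and the macrophage markers are highest on replicate 3, at 1.80.

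The genes differ widely in length on the chromosome. On assembly GRCm38.p6, Dmd spans 2390.4 kb and was the longest of the 11376 tested genes with a length, and Sgcd, at 1018.4 kb, was rank 21. Utrn spans 487.7 kb, Dtna 349.7 kb, Sntb1 270.9 kb, Dag1 59.1 kb, Sgcb 15 kb and Sgca 13.6 kb. Dmd and Sgcd, the longest pair, had the largest falls of the 8. Utrn, the next in length, did not pass the test and Sntb1 rose, so the order was not complete. Among all tested genes of at least 500 kb, 42.7% of 96 fell and 2.08% rose after 4 tamoxifen injections in MerCreMer mice. The shares that fell and rose were 35.7% and 3.53% of 283 genes between 250 and 500 kb, 17% and 8.61% of 1115 between 100 and 250 kb, 7.19% and 17% of 4687 between 20 and 100 kb, and 7.74% and 13.1% of 5195 below 20 kb. These length classes were chosen after the values were seen, describe the comparison without a test and include the 8 genes.

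**Figure D4:**
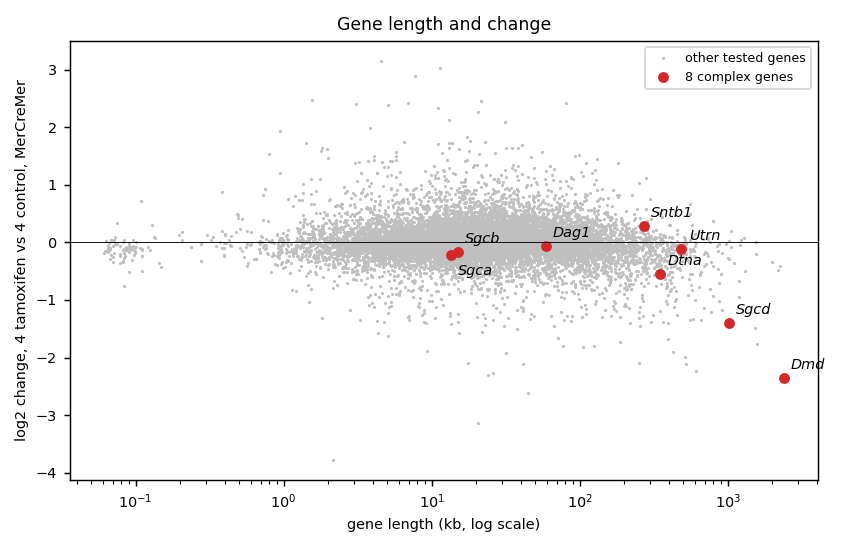
Gene length in kb (horizontal log axis) against the log2 change after 4 tamoxifen injections in MerCreMer mice for the tested genes, with the 8 genes of the complex named. Dmd (-2.35) and Sgcd (-1.40) lie at the long end, while Utrn (-0.12) and Sntb1 (0.29) are long genes near 0.

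Other tested genes of the complex were not called. Only 5 were bright enough to test, and 0 of 5 passed the limma test, beside 23.3% of all tested genes. Of the 5, 1, Dtnb, had an unadjusted p under 0.05, as did 4220 of all 11384 genes. Dtnb, the β-dystrobrevin gene, changed by -0.17 (adjusted p = 0.122), Cav3, muscle caveolin, by 0.19, Sgce, ε-sarcoglycan, by 0.12, Sntb2, another syntrophin, by 0.11 and Sspn, sarcospan, by -0.06. Sgcz, Sntg1, Sntg2, Nos1 and Drp2 were too dim to test, with log2 values of at most 5.14.

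Of 13 tested genes that place or extend the laminin-binding sugar chains on dystroglycan, 1 fell, 0 rose and the median change was -0.05. Over all tested genes 9.41% fell, 13.9% rose and the median change was 0.014. The gene that fell was Pomgnt2, an enzyme of that glycan (-0.56, SE 0.141, limma adjusted p = 0.00914). Of 15 basement membrane and matrix genes, 1 fell and 1 rose (median 0.1). Relative to the MerCreMer 4 control mean, their list median was 0.08, -0.07 and 0.41 on MerCreMer 4 tamoxifen replicates 1, 2 and 3. Lama2, the laminin chain of muscle basement membrane that dystroglycan binds, fell from 8.91 to 8.96 in the MerCreMer 4 controls to 8.38, 8.24 and 7.89, a change of -0.77 (SE 0.0873, limma adjusted p = 1.31e-05). It also differed between genotypes in its tamoxifen effect (-0.84, adjusted p = 0.000248). Lama4, a laminin chain of vessels, rose by 0.27 (SE 0.0648, adjusted p = 0.00739).

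Costamere genes, which tie the Z-discs to the membrane beside the dystrophin complex, moved in both directions. Of 24 tested, 4 fell and 8 rose, with a median change of 0.21. Relative to the MerCreMer 4 control mean, the list median was 0.02, 0.04 and 0.51 on MerCreMer 4 tamoxifen replicates 1, 2 and 3. It was thus raised mainly on replicate 3, which also had the highest macrophage markers. Among all tested genes 9.41% fell and 13.9% rose, with a median of 0.014. Lims1, an adaptor of integrin-linked kinase, fell by 0.68 (SE 0.0619, limma adjusted p = 1.16e-06), with tamoxifen arrays at 7.85, 7.89 and 7.88. Svil, the membrane-bound actin regulator supervillin, fell by 0.79 (SE 0.0879). Flnc, the muscle filamin that binds sarcoglycans, rose by 1.05 (SE 0.133). Itga5, a fibronectin receptor subunit, rose by 1.04 (SE 0.197), with tamoxifen arrays at 7.85, 8.15 and 9.11. All 4 were also called in the genotype difference (adjusted p of 6.87e-05 to 0.0144).

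Of 14 tested genes of caveolae and membrane repair, 3 fell and 4 rose (median 0.19), beside 9.41% and 13.9% of all tested genes. Mlip, listed here although it is a muscle lamin-interacting protein, fell by 1.32 (SE 0.136, limma adjusted p = 5.14e-06). It was the only gene of this list called in the genotype difference (-1.37, limma adjusted p = 0.00019). Cavin4, a muscle caveolar coat protein, fell by 0.45 (SE 0.141), while the annexins Anxa5 and Anxa2 rose by 0.52 (SE 0.124) and 1.08 (SE 0.333). Anxa2 was at 7.94, 8 and 9.96 after tamoxifen, highest on the array with the highest macrophage markers. The counts of this list were 3 without MerCreMer 4 control replicate 1, 2 without control replicate 2, 3 without control replicate 3 and 4 without MerCreMer 4 tamoxifen replicate 3. Leaving out MerCreMer 4 tamoxifen replicate 1 raised the matrix count to 8, and leaving out replicate 2 raised it to 5. Either omission gave 4 glycosylation genes and 1 other complex gene.

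**Figure D5:**
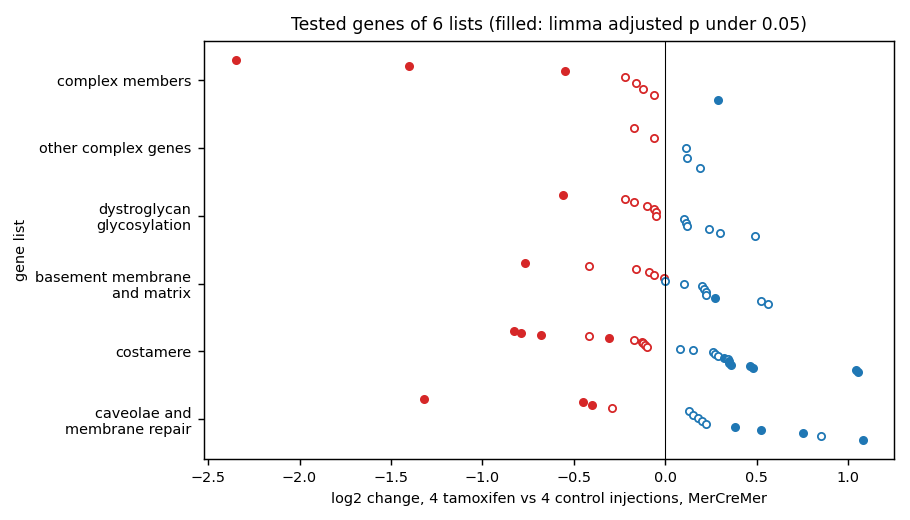
Log2 change after 4 tamoxifen injections in MerCreMer mice (horizontal axis) for every tested gene of the complex members and 5 related lists, with filled points for genes called by limma. Dmd, at -2.35, and Sgcd, at -1.40, lie below every gene of the 5 lists, of which Mlip, at -1.32, is the lowest.

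The genes whose profiles lay nearest to Dmd and Sgcd were different ones. Likeness was the root mean square difference over the 21 arrays, each gene centred on its own mean. Profiles were not scaled, so a near gene had to change by a like amount on the same arrays. Since Dmd and Sgcd changed by unlike amounts, different neighbours follow largely from the measure. For Dmd the 5 nearest of the tested genes outside the complex were Yipf7 (0.169 log2 units), Kcnd2 (0.24), Asb15 (0.244), Ctnna3 (0.252) and Cacna1c (0.256). Kcnd2 and Cacna1c encode cardiac potassium and calcium channel subunits, and Ctnna3 a catenin of the intercalated disc. Yipf7, like Dmd, was lowest on MerCreMer 4 tamoxifen replicate 3, at 7.37, 7.20 and 5.64. For Sgcd the 5 nearest were Camk2d (0.139), Dip2c (0.145), Limch1 (0.154), Ppp1r12b (0.154) and Arhgap26 (0.157), whose changes lay between -1.40 and -1.07. Camk2d, a calcium/calmodulin-dependent kinase, was even across the arrays, at 8.09, 8.06 and 8.13.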

How the data were processed

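The authors deposited log2 values. The submitters' processing notes name RMA, and its software is not given in the sources used here. They were used without further scaling, for 34760 probe sets on 21 arrays, whose medians ran from 4.57 to 4.72. The platform annotation gave 1 gene for 21640 probe sets, several for 1321 and none for 11799. Per gene, the single-gene probe set with the highest mean was kept (19937 genes). Entrez identifiers matched RefSeq (GRCm38.p6) for 99.6%.

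Means of 6 groups and a sex term were fitted with limma 3.58.1 (lmFit, eBayes) in R 4.3.3, leaving 14 residual degrees of freedom, and p values were Benjamini-Hochberg adjusted over 11384 genes. The fit was checked on simulated data. Alternatives changed 1 choice at a time. From each related list up to 4 called genes with the smallest adjusted p were named, or else the gene with the smallest p, and likeness was computed for members that changed by at least 1 log2 unit. The members and lists were chosen with earlier results of these data known. The labels name no array batch. After the data were seen, 2 sets of arrays were told apart by 1 unnamed probe set, with a limit of 11.4. No other array or probe set was left out of the normalised table.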

Additional observations from a re-analysis of the deposited data

Results flagged for a closer look

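Tests of a difference between groups were passed by 4 genes for genotype and 3 for injection days. The tamoxifen effect differed between MerCreMer and wild-type mice by -2.40 for Dmd, -1.46 for Sgcd, -0.49 for Dtna and 0.39 for Sntb1. It differed between 4 and 1 injection days by -2.38 for Dmd, -1.45 for Sgcd and -0.63 for Dtna. Within the wild-type control group of 6, the 1 group large enough for a test of single arrays, 0 values of the 8 genes stood apart.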

How the results depend on the processing

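The directions of Dmd, Sgcd, Dtna and Sntb1 after 4 tamoxifen injections in MerCreMer mice, and in both tests of a difference, were kept under every alternative run. Of the 8 genes, 4 were called after 4 tamoxifen injections in MerCreMer mice, and 1 with only the arrays compared and 2 within the higher-level array set, which holds 8 MerCreMer arrays (an alternative added after seeing the data, in which Dmd was at -2.78 and Sgcd at -1.46). Leaving out 1 array gave 3 to 4. The genotype difference gave 1, Sgcd, with the replicate block (Dmd -2.51, adjusted p = 0.0721, and Dtna -0.47, adjusted p = 0.391, were not called), 2 with only the arrays compared, with group variance weights or with female arrays only, and 2 to 4 with 1 array left out. The difference between injection days gave 0 within the higher-level array set (Dmd -2.38, Sgcd -1.68 and Dtna -0.79, adjusted p = 0.208, 0.103 and 0.168) and 3 to 4 with 1 array left out. The MerCreMer and wild-type controls gave 1, Dag1, with group variance weights, with array weights or without the MerCreMer 4 tamoxifen arrays (added), and 0 to 0 with 1 array left out. Tamoxifen in wild-type mice, 1 injection and the number of control injections gave 0 under every alternative run.

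For the related lists, with 0 other complex genes, 1 glycosylation, 2 matrix, 12 costamere and 7 membrane repair genes called, only the arrays compared gave 0 in each. The membrane repair count was 2 with the replicate block or array weights, 3 with group variance weights or within the higher-level array set, and 4 with females only. The costamere count was 6, 5 and 7 under those last 3, and the matrix count 1 with group weights and 4 with females only. The glycosylation count was 2 with an intensity trend, the stricter filter, the mean of probe sets, females only or the array set as a block. With 1 array left out the counts were 0 to 1, 1 to 4, 2 to 8, 10 to 18 and 2 to 10. Over all genes, 2654 were called in the main comparison, 18 with only the arrays compared, 1011 with group variance weights, 1490 with array weights, 1502 with females only, 655 within the higher-level array set, 1655 with the replicate block, and 1648 to 3846 with 1 array left out. Samples share only a number: correlations of same-numbered tamoxifen and control arrays were 0.11, -0.04 and 0.05 for 4 injections in MerCreMer mice, 0.28, 0.07 and 0.25 for 1 injection, and 0.28, -0.15 and -0.20 in wild-type mice. The lower-level array set held a single array of each MerCreMer group and every wild-type array, so no fit within it was run. Precision is limited by 3 arrays per group and, for Sntb1, by a signal near the brightness limit.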
